A study of Mus musculus with 4 samples.

Results

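Toll-like receptors and the proteins that carry their signal were examined in tibial bone marrow of obese mice with and without exercise. The set was chosen by gene name and holds 10 of the 55401 genes in the tables: the receptors Tlr1, Tlr2, Tlr4, Tlr6, Tlr7, Tlr9 and Tlr13, the co-receptor Cd14, the adaptor Myd88 and the kinase Irak1. All 10 were among the 18596 genes with a mean FPKM (fragments scaled to transcript length and library size) of at least 0.1, so all of them were tested. Male wild-type C57/B6 mice, 8 weeks old at the start, were all fed a high-fat diet (HFD) for 6 weeks before the split. The unexercised group (Ob) stayed on the diet, and the exercised group (Ob + Exe) ran at moderate intensity on a treadmill for 1 h a day on 6 days per week over 12 weeks, with the diet continued. Marrow called representative by the study was sequenced as 2 libraries per group, out of 9 mice per group at allocation. The labels do not say that each library is 1 mouse, so the p-values measure the spread between these libraries, which may be partly technical. A lean group was not analysed here, so both groups share the diet and the obesity.

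Toll-like receptors recognise conserved microbial molecules and are a first alarm of innate immunity. TLR2, which pairs with TLR1 or TLR6, reads bacterial lipopeptides at the cell surface, and TLR4 reads lipopolysaccharide there with the help of CD14 and MD-2. TLR7, TLR9 and TLR13 sit in endosomes and read single-stranded RNA, unmethylated CpG DNA and bacterial ribosomal RNA. All of these receptors signal through the adaptor MyD88, which assembles IRAK kinases and leads to NF-κB, AP-1 and inflammatory cytokines. In marrow these receptors are carried mainly by neutrophils, monocytes, macrophages, dendritic cells and B cells.

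Read coverage converted to 150-base reads came to between 44310505 and 53038186 reads on transcripts per library, and the 10 genes had from 161 to 5897 of them in a library. The labels name bone marrow as the tissue but also mesenchymal stem cells and fibroblast, so markers were checked. The 12 neutrophil markers summed to between 28142 and 66264 scaled FPKM and the 10 erythroid markers to between 55339 and 83298. The 12 stroma and fibroblast markers summed to between 152 and 213. Of these, Cxcl12 (88.4 to 142) and Vcam1 (35.3 to 40.3) were highest, while Col1a1 stood at 1.17 to 3.12 and Pdgfra at 0.264 to 0.381. Markers of blood cells thus prevailed, as in whole marrow. In such bulk samples, fewer cells of a type and less RNA per cell cannot be told apart.

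Of the 10 genes, 1 was called, Tlr2. It was higher in Ob + Exe than in Ob by 2.12-fold. Genes were called at the study's thresholds, an unadjusted p under 0.05 together with a log2 fold change beyond 1, and these were passed by 3.74% of all genes tested, 1.0% higher and 2.74% lower in Ob + Exe. The log2 fold changes of the 10 genes ran from -0.31 (Tlr7) to 1.08 (Tlr2), with 7 above 0 and 3 below, and their median was 0.12 beside -0.02 for all genes tested. In 3 of the 10 genes, Tlr2, Tlr6 and Myd88, both Ob + Exe libraries lay above both Ob libraries. The groups did not overlap in 32.6% of all genes tested, 14.3% higher and 18.3% lower in Ob + Exe. No gene in the whole table had an adjusted p under 0.05 in limma (Benjamini-Hochberg, smallest 0.738), while 940 genes had an unadjusted p under 0.05. For 1 gene alone, exact permutation of these 4 libraries reaches no two-sided p lower than 0.333.

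**Figure D1:**
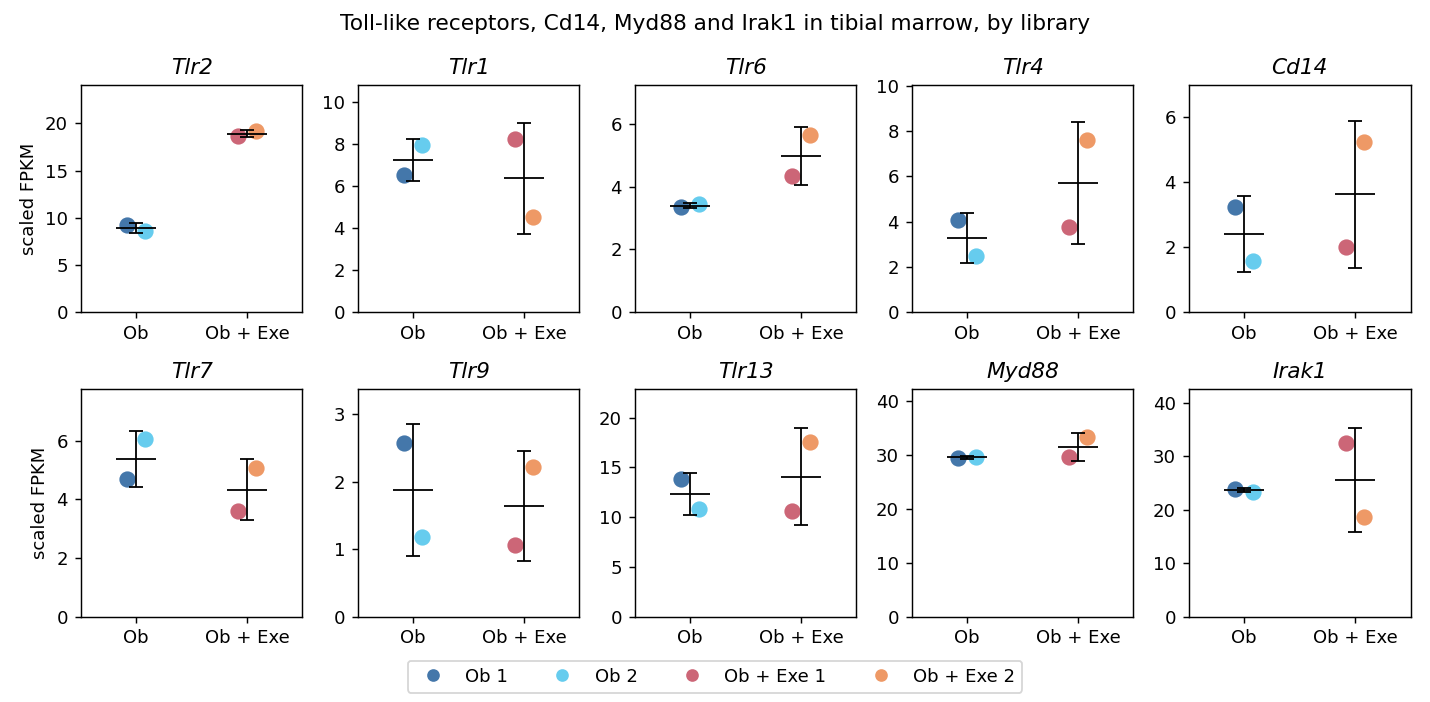
Scaled FPKM (vertical axis, from 0) of each of the 10 genes in the 4 libraries. Points are libraries, the horizontal bar is the group mean and the error bar the SD of n = 2 libraries. The groups stand apart for Tlr2, while the points of Tlr4, Cd14 and Tlr9 are widely spread within both groups. Those of Tlr13 and Irak1 are spread mainly in Ob + Exe.

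Tlr2 encodes the surface receptor for lipopeptides and lies on the minus strand of chromosome 3 of GRCm38, from 83836272 to 83841767. It is a protein-coding gene with 1 annotated transcript. The Ob libraries had 9.29 and 8.57 scaled FPKM (FPKM divided by a library factor), against 18.6 and 19.2 with exercise. The means were 8.93 ± 0.511 (SD, n = 2) and 18.9 ± 0.384 (SD, n = 2), so the libraries within a group were close and the groups were far apart. The values rested on 1913 and 1728 reads in Ob and on 3316 and 3169 in Ob + Exe. On the log2(FPKM + 0.1) scale the fold change was 1.08 with a standard error of 0.220 (limma, unadjusted p = 0.00302, adjusted p = 0.941). Tlr2 ranked 53 of the 18596 genes by its p value. The call was lost when the libraries were not scaled, where the log2 fold change was 0.99 and the median of all genes was -0.10. None of the 2984 31-base stretches of its transcripts occurred in a transcript of another gene.

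The 250 bases before the RefSeq start of Tlr2, at 83841608, are shown because it is the 1 gene of the set that was called. The annotated transcript measured here begins further upstream, at 83841767, so the later part of the window lies within its span. The sequence is from RefSeq (GRCm38.p6), chr3:83841609-83841858, minus strand, printed 5′ to 3′. Capitals mark the stretch that holds 2 overlapping matches to the NF-κB consensus, 1 base apart, of which 1 matches on both strands. This motif was found on either strand in 3.90% of the 32851 promoter windows of the same length, and a match is a description of the letters only. Outside the match lie 2 GC boxes (GGGCGG, in 32.7% of the windows), both within the span of the measured transcript, whereas the NF-κB stretch lies before it. The core of PU.1, a myeloid factor, with the letters GAGGAA, was searched on both strands and found in 23.2% of the windows but not here.
Tlr2: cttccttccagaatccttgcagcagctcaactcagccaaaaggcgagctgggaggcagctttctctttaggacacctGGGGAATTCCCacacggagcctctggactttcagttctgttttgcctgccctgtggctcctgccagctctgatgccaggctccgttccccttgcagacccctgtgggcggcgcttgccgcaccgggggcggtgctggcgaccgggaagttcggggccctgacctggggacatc

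Neither partner of TLR2 was called, and whether their change differed from that of Tlr2 was not tested. Tlr1 had a scaled FPKM of 6.54 and 7.94 in the Ob libraries against 8.23 and 4.51 in Ob + Exe libraries. The Ob + Exe values enclosed both Ob values, and the log2 fold change was -0.24 (standard error 0.364). Tlr6 had 3.34 and 3.45 in the Ob libraries against 4.33 and 5.64 in Ob + Exe libraries. Both Ob + Exe libraries lay above both Ob libraries, but the log2 fold change of 0.53 (standard error 0.308, limma, unadjusted p = 0.138) did not pass. Within each library, the scaled FPKM of Tlr2 was 1.42 and 1.08 times that of Tlr1 in Ob and 2.27 and 4.25 times in Ob + Exe. The same ratio to Tlr6 was 2.78 and 2.48 in the Ob libraries against 4.30 and 3.40 in Ob + Exe libraries. Both ratios were thus higher in the Ob + Exe libraries than in the Ob libraries.

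Tlr1 and Tlr6 are neighbours on the minus strand of chromosome 5, at 64924679 to 64933563 and 64952031 to 64960097, with 18467 bases between them. They are near copies in part. Of the 3322 31-base stretches of Tlr1, 665 also occur in another gene, as do 616 of the 3709 of Tlr6, and 607 are shared between these 2 genes. How reads in these stretches were divided is not given in the sources used here, so the split between Tlr1 and Tlr6 is uncertain.

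Tlr4 and Cd14 stood in the same order of libraries, and neither was called. Tlr4, the lipopolysaccharide receptor, had a scaled FPKM of 4.06 and 2.49 in the Ob libraries against 3.79 and 7.60 in Ob + Exe libraries. Cd14, which hands lipopolysaccharide to the receptor complex, had 3.24 and 1.58 in the Ob libraries against 2.02 and 5.23 in Ob + Exe libraries. For both genes the second Ob + Exe library was highest, the first Ob library next and the second Ob library lowest, and the groups overlapped. This order of the 4 libraries was found in 5.62% of all genes tested. Ly96, the gene of MD-2, is outside the set and was looked up after these values were seen. It had 5.25 and 3.81 in the Ob libraries against 5.25 and 8.45 in Ob + Exe libraries, again with the second Ob + Exe library on top and the second Ob library at the bottom. The log2 fold changes were 0.74 for Tlr4 (standard error 0.454), 0.51 for Cd14 (standard error 0.586) and 0.56 for Ly96 (standard error 0.356), and none was called. Within the Ob + Exe group alone, Tlr4 differed 2.01-fold and Cd14 2.59-fold between the 2 libraries.

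The sum of the 12 neutrophil markers followed the same order, with 49301 and 28142 scaled FPKM in Ob and 36553 and 66264 in Ob + Exe. None of these markers was called, 11 of the 12 had a log2 fold change above 0, and none was at 0. The sum of the 12 monocyte and macrophage markers was 695 and 606 in the Ob libraries against 638 and 721 in Ob + Exe libraries, also in this order, with none called. The sums of both lists overlapped between the groups, and the neutrophil sum was carried mostly by S100a8 and S100a9. Of the single markers, 2 of the 12 neutrophil genes (Camp and Csf3r) had both Ob + Exe libraries above both Ob libraries, as Tlr2 had. The same held for 4 of the 12 monocyte and macrophage genes (Ccr2, Adgre1, F13a1 and Ms4a6c). The log2 fold changes of these genes ran from 0.18 to 0.45, and 14.3% of all genes tested stood in this way. Of the 12 monocyte and macrophage genes, 5 had a log2 fold change above 0 and 7 below, and Mrc1 was lower in both Ob + Exe libraries. Relative to its mean over the libraries, Tlr2 stood at 1.34 in the first Ob + Exe library, where the neutrophil sum stood at 0.811, and at 0.667 in the first Ob library, where that sum stood at 1.09. Other marker lists held called genes, while 2.74% of all genes tested were called lower in Ob + Exe. Of the 10 B lineage markers, 2 were called and both were lower in Ob + Exe (Cd79a and Igll1), and the list summed to 225 and 237 scaled FPKM in the Ob libraries against 183 and 144 in Ob + Exe libraries. Of the 8 megakaryocyte markers, 2 were called lower (Gp1bb and Treml1), with sums of 478 and 356 in the Ob libraries against 389 and 146 in Ob + Exe libraries. The groups also stood apart in the sums of the adipocyte markers (70.2 and 73.3 in the Ob libraries against 117 and 93.9 in the Ob + Exe ones, mostly Fabp4, not called). Of the 5 adipocyte markers tested, only Fabp4 had groups that did not overlap. The log2 fold change was above 0 in 3 of the 5 and below in 2, Cfd (-0.21) and Cidec (-0.74). The groups stood apart too in the sums of the endothelial markers (18.3 and 17.1 in Ob against 13.8 and 11.8 in Ob + Exe). Of these 6 genes none was called, and 5 were lower in both Ob + Exe libraries, as were 18.3% of all genes tested. The levels of Cdh5, Kdr, Emcn and Tek were low, from 0.437 to 1.34 scaled FPKM. The plasmacytoid dendritic cell markers summed to 138 and 157 against 127 and 76.9. Among these only Ly6d was lower in both Ob + Exe libraries, at 55.7 and 39.5 in Ob against 17.3 and 28.8. Of the 8 plasmacytoid markers, 7 had a log2 fold change below 0, and Siglech had one of 0.29. No neutrophil, monocyte, B lineage or megakaryocyte marker was at 0 in all libraries. The part of cell make-up in the values of the receptors was not tested.

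**Figure D2:**
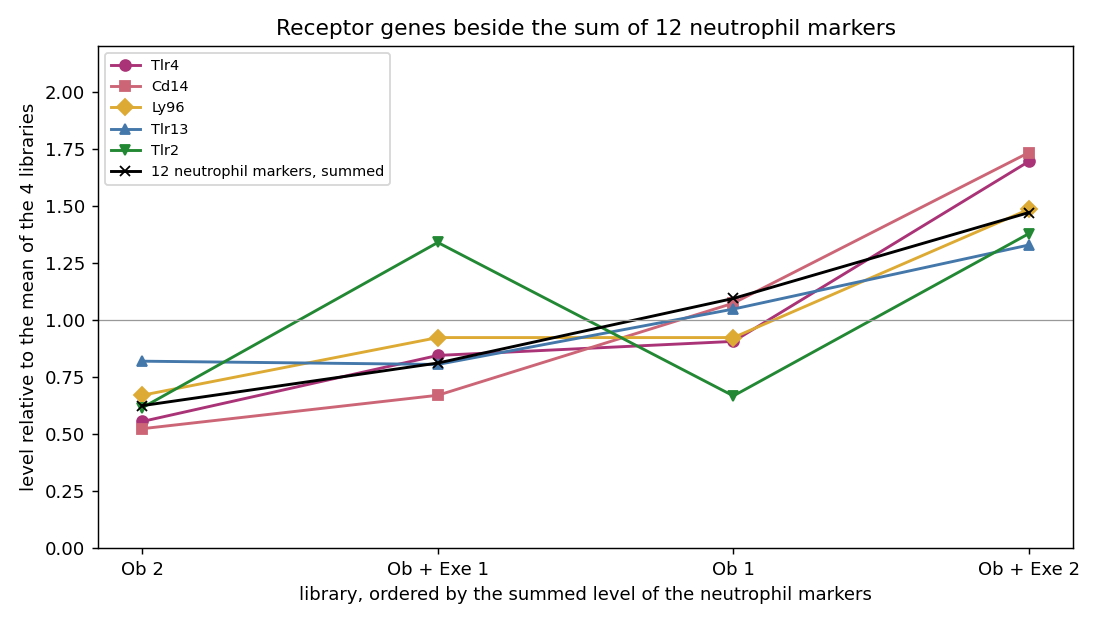
Level of Tlr4, Cd14, Ly96, Tlr13 and Tlr2 and of 12 summed neutrophil markers in each library, divided by the mean of the 4 libraries (vertical axis, from 0). Libraries on the horizontal axis are ordered by the neutrophil sum, whose values rise from 0.624 to 1.47. Tlr4 and Cd14 rise along this order, whereas Tlr2 is at 1.34 and 1.38 in the Ob + Exe libraries and at 0.667 and 0.615 in the Ob libraries.

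None of the endosomal receptors was called, and the groups overlapped for each of them. Tlr13, the receptor for bacterial ribosomal RNA, was the most abundant of them, with a scaled FPKM of 13.8 and 10.8 in the Ob libraries against 10.6 and 17.5 in Ob + Exe libraries. The Ob + Exe values lay on both sides of the Ob values, for a log2 fold change of 0.16 (standard error 0.320). Tlr7, the receptor for single-stranded RNA, had 4.70 and 6.05 in the Ob libraries against 3.61 and 5.06 in Ob + Exe libraries. Its log2 fold change was -0.31 (standard error 0.326), and its groups overlapped. Tlr9, the receptor for CpG DNA, was the least abundant, with 2.57 and 1.19 in the Ob libraries against 1.06 and 2.22 in Ob + Exe libraries. It differed by 2.16-fold between the 2 Ob libraries and by 2.09-fold between the 2 Ob + Exe libraries, and its log2 fold change was -0.17 (standard error 0.573). Tlr9 rested on 218 to 610 reads per library. Tlr7, Tlr13 and Irak1 are on the X chromosome.

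Myd88, the adaptor shared by these receptors, was the most abundant of the 10 genes and varied least over the 4 libraries. In scaled FPKM it had 29.4 and 29.7 in the Ob libraries against 29.7 and 33.4 in Ob + Exe libraries. The Ob + Exe libraries were above both Ob libraries by a small margin, and the log2 fold change was 0.09 (standard error 0.200, limma, adjusted p = 0.977). Irak1, the kinase recruited by MyD88, had 24.0 and 23.4 in the Ob libraries against 32.5 and 18.7 in Ob + Exe libraries. The 2 Ob libraries were nearly equal, the 2 Ob + Exe libraries lay above and below them, and the log2 fold change was 0.06 (standard error 0.307). Myd88 overlaps Acaa1a on the opposite strand, a gene with 27.8 to 34.96 scaled FPKM in these libraries, and 8.93% of the 31-base stretches of Myd88 occur in other genes. No source used here says that the counting used the strand, so reads of the overlap cannot be assigned with certainty.

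By their mean over the 4 libraries the genes stood in the order Myd88 (30.5 scaled FPKM), Irak1 (24.6), Tlr2 (13.9), Tlr13 (13.2), Tlr1 (6.80), Tlr7 (4.85), Tlr4 (4.48), Tlr6 (4.19), Cd14 (3.02) and Tlr9 (1.76). Tlr13 and Tlr1 were the only neighbours in this order whose ranges did not overlap. Tlr2 was below Tlr13 in both Ob libraries and above it in both Ob + Exe libraries. As a description over 4 libraries, the mean profile of the 10 genes was most like that of Pik3cb, Setd7 and Hus1, with Pearson correlations of 0.99978 to 0.99998, and 622 of 12399 genes compared (5.02%) had a correlation of at least 0.95.

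**Figure D3:**
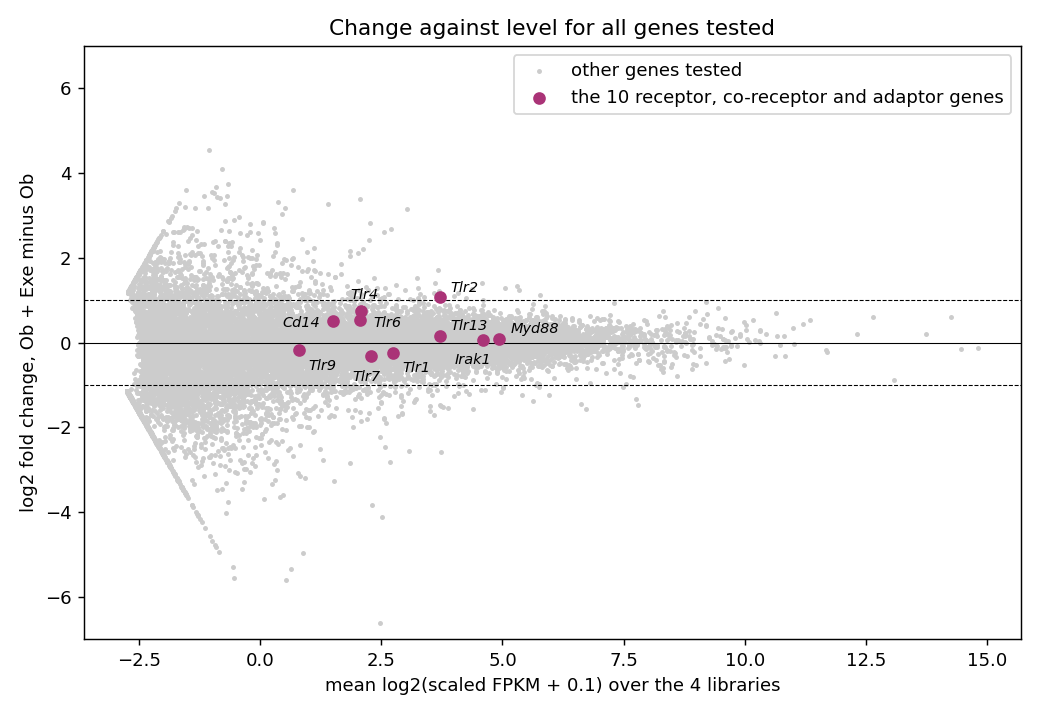
Log2 fold change, Ob + Exe minus Ob (vertical axis), against the mean log2(scaled FPKM + 0.1) of the 4 libraries (horizontal axis) for the 18596 genes tested. Each grey point is a gene, the 10 genes are marked and named, and dashed lines stand at -1 and 1. Tlr2 lies just above the upper line at 1.08 and the other 9 lie between the lines.

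The transcripts of the genes were followed as well. StringTie divides the reads over a gene among its annotated transcripts, so these values are estimates. The 10 genes have 47 annotated transcripts, 22 of them of Irak1, and 10 transcripts were at 0 in all libraries. Of the 13 transcripts with at least 1 FPKM in both Ob libraries, 3 were listed at 0 in both Ob + Exe libraries. Among all transcripts in the tables the same was found for 483 of 17723 (2.73%). The opposite pattern was found for none of the 11 transcripts of the set with at least 1 FPKM in both Ob + Exe libraries, and for 51 of 15403 in the tables (0.331%). More genes were detected in the Ob libraries (23309 and 20663) than in the others (17752 and 19291), and the part of this in the transcripts listed at 0 was not tested.

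The 3 transcripts belong to Tlr1, Tlr7 and Irak1. The Tlr1 transcript ENSMUST00000059349.5 had a scaled FPKM of 1.94 and 1.88 in Ob, which was 29.6% and 23.7% of the gene, and was listed at 0 in both Ob + Exe libraries. Its other main transcript, ENSMUST00000197315.4, had 4.599 and 6.06 in the Ob libraries against 8.12 and 4.51 in Ob + Exe libraries. The Tlr7 transcript ENSMUST00000112164.1 held 42.7% and 30.7% of the gene in Ob and was listed at 0 in both Ob + Exe libraries. The Irak1 transcript ENSMUST00000114352.7 held 16.3% and 38.1% in Ob and was also listed at 0 in both. The most abundant Irak1 transcript, ENSMUST00000114354.9, had 10.5 and 9.42 scaled FPKM in Ob and 15.7 and 16.2 in Ob + Exe. Its groups thus did not overlap, although those of the whole gene did. It is nearly the same in extent as ENSMUST00000114352.7, both with 14 exons and with lengths of 3835 and 3825 bases. ENSMUST00000114352.7 had 3.91 and 8.92 scaled FPKM in Ob. How reads were divided between these 2 transcripts is uncertain, and the separation of the groups depends on it. A further Irak1 transcript, ENSMUST00000068286.11, held 39.2% of the gene in the first Ob + Exe library and was at 0 in the second. With only the most abundant transcript of each gene, the log2 fold change turned to 0.15 for Tlr1 and to 0.82 for Tlr7. For Irak1 it was then 0.64 (limma, unadjusted p = 0.0444, adjusted p = 0.839), short of the fold threshold. This Irak1 value rests on the same uncertain division of reads. In Myd88, by contrast, 1 transcript held 75.4% to 95.7% of the gene in every library.

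**Figure D4:**
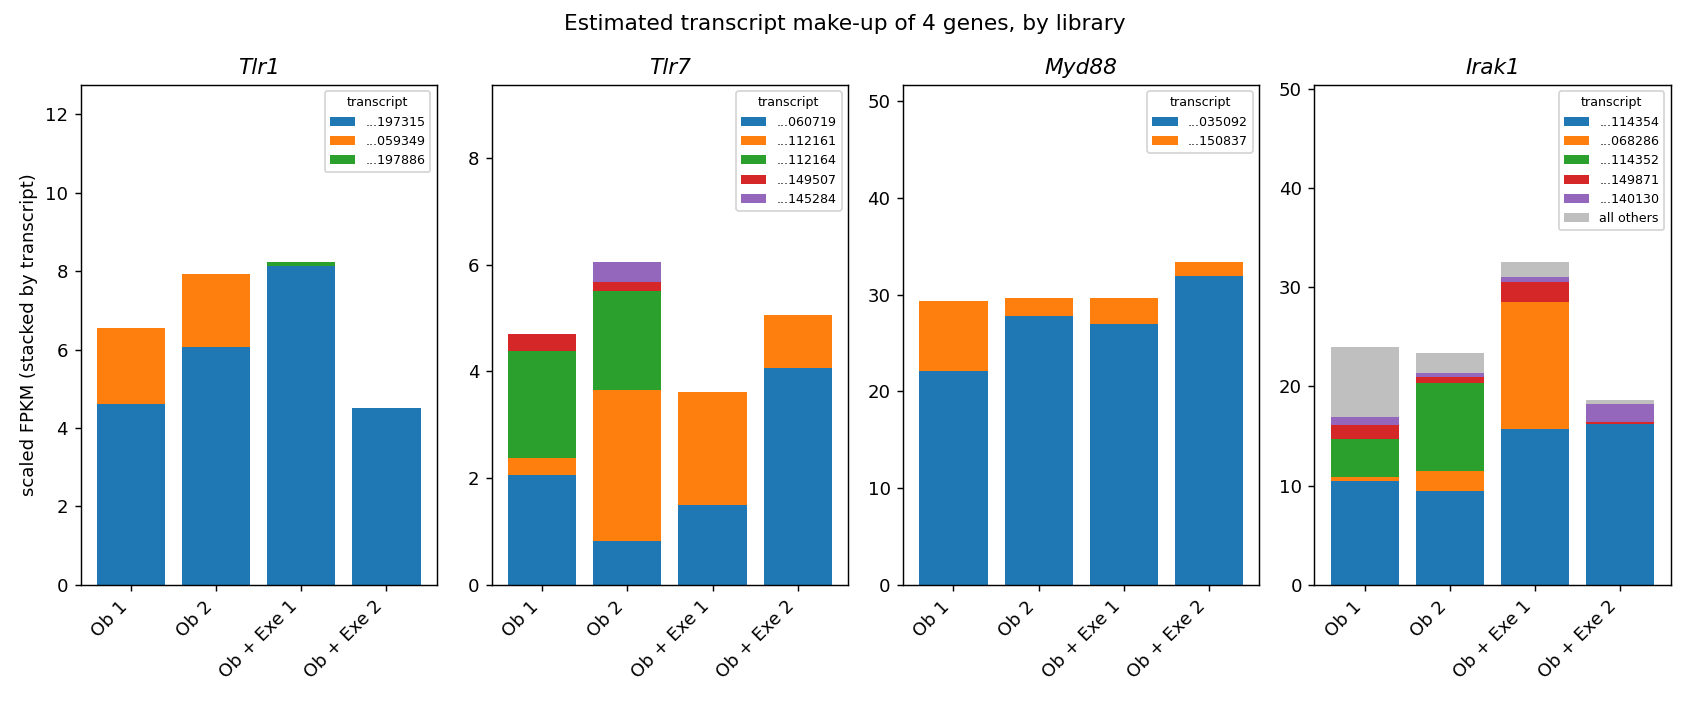
Scaled FPKM (vertical axis, from 0) of Tlr1, Tlr7, Myd88 and Irak1 in the 4 libraries, stacked by annotated transcript. Legends give the end of each Ensembl transcript identifier, and for Irak1 the transcripts of lower level are joined as all others. The Tlr1, Tlr7 and Irak1 transcripts that are listed at 0 in both Ob + Exe libraries appear as layers in the Ob bars only.

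The 2 main Tlr1 transcripts begin at different places, the one listed at 0 in Ob + Exe at 64932761 and the other at 64933561 on the minus strand of chromosome 5. RefSeq (GRCm38.p6) also has 2 starts near these positions, and the 250 bases before each are shown because the transcript listed at 0 in Ob + Exe begins near the downstream one. The downstream window includes the first bases of that transcript. The upstream window is chr5:64933559-64933808 and the downstream window chr5:64932700-64932949, both from the minus strand and printed 5′ to 3′. Capitals mark a match to the PU.1 core GAGGAA, which was present before the upstream start and absent from the downstream window. The NF-κB consensus matched in neither.
Tlr1 upstream: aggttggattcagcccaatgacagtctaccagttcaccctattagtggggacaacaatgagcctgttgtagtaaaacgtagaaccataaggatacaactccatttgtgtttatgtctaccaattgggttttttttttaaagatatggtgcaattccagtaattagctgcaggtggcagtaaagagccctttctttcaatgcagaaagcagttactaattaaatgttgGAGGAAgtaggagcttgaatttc
Tlr1 downstream: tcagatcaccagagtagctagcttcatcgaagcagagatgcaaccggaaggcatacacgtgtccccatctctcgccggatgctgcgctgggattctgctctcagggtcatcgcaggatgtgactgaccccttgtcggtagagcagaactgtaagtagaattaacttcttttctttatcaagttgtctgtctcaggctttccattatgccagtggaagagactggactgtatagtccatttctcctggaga

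The other genes of the pathway were taken from 7 lists by role, with 74 genes in all, of which 69 were tested. Of these, 2 were called, Fos and Il1b, both higher in Ob + Exe. The median log2 fold change was 0.07, beside -0.02 for all genes tested, with 44 genes above 0 and 25 below. Both Ob + Exe libraries lay above both Ob libraries in 17 of them (24.6%, beside 14.3% of all genes tested) and below in 5 (7.25%, beside 18.3%).

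None of the other Toll-like receptors was called, and all 5 had a log2 fold change above 0, as had 48.3% of all genes tested. Tlr8, an endosomal receptor for RNA, was the most abundant of them, with a scaled FPKM of 3.84 and 3.06 in the Ob libraries against 4.32 and 5.68 in Ob + Exe libraries. Its groups did not overlap, and the log2 fold change was 0.52 (standard error 0.322). Tlr5, Tlr11, Tlr12 and Tlr3 had log2 fold changes of 0.72, 0.78, 0.42 and 0.34, with standard errors from 0.446 to 0.925. The groups overlapped for Tlr3, Tlr5 and Tlr11. Tlr11 rested on 15 to 120 reads per library and was highest in the first Ob + Exe library, and Tlr3 was highest in the second Ob library. None of the 13 co-receptors and chaperones was called. Ctsb, a protease of the endosome, had the highest level among them, with 120 and 126 in the Ob libraries against 148 and 136 in Ob + Exe libraries. Unc93b1, which brings the endosomal receptors to their compartment and was named after its values were seen, had 82.3 and 104 in the Ob libraries against 104 and 68.3 in Ob + Exe libraries, a log2 fold change of -0.13.

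Below the receptors, the 4 other adaptors tested had log2 fold changes from -0.29 to 0.19. Pik3ap1, an adaptor to PI3K, was the most abundant, with 14.0 and 13.5 in the Ob libraries against 9.91 and 12.7 in Ob + Exe libraries, lower in both Ob + Exe libraries but not called (log2 fold change -0.29). None of the 15 kinases and ubiquitin ligases was called, and Tab2, a partner of the kinase TAK1, had 58.5 and 60.2 in the Ob libraries against 46.7 and 65.97 in Ob + Exe libraries. None of the 10 inhibitors was called. Among them Nfkbia, the inhibitor of NF-κB that is itself induced by it, had 47.1 and 44.8 in the Ob libraries against 38.9 and 44.5 in Ob + Exe libraries. Nfkbia was thus lower in both Ob + Exe libraries, with a log2 fold change of -0.14.

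Fos, a subunit of AP-1, was called, with a scaled FPKM of 5.80 and 6.25 in the Ob libraries against 13.5 and 16.2 in Ob + Exe libraries. The groups stood well apart, and the log2 fold change was 1.28 (standard error 0.245, limma, adjusted p = 0.941). None of the 5 NF-κB subunits was called. In 3 of them, Nfkb1, Rela and Rel, both Ob + Exe libraries lay above both Ob libraries, as in 14.3% of all genes tested. Their log2 fold changes were 0.39, 0.16 and 0.48, with standard errors of 0.240, 0.201 and 0.285. In Nfkb2 and Relb the groups overlapped, with 0.049 and -0.081. Of the 16 output genes, 12 were tested. Il1b, an inflammatory cytokine, was called with 24.1 and 25.5 in the Ob libraries against 56.9 and 69.2 in Ob + Exe libraries (log2 fold change 1.34, standard error 0.209, limma, adjusted p = 0.794). The output genes as a list held values on both sides of 0. The median of the 12 was -0.13, with 6 above 0 and 6 below, and Tnf had a log2 fold change of 0.17 (standard error 0.308). Fos and Il1b are induced by many signals besides Toll-like receptors.

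**Figure D5:**
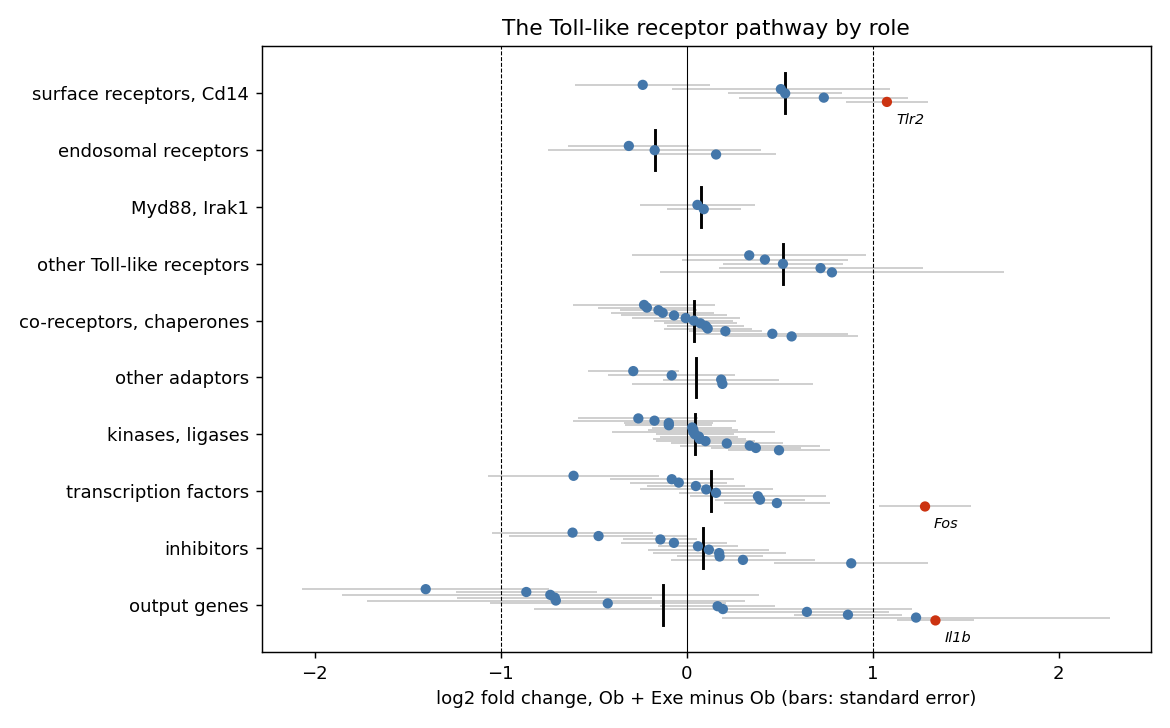
Log2 fold change, Ob + Exe minus Ob (horizontal axis), of the 10 genes (first 3 rows) and of the other pathway genes tested, by role. Points are genes, grey bars the standard error from limma, black ticks the median of a row and red points the called genes. Tlr2, Fos and Il1b are the called genes, all above 1, while the row medians lie between -0.17 and 0.53.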

How the data were processed

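RNA-seq was available from 2 Ob and 2 Ob + Exe bone marrow libraries. Per the labels and the methods, the authors used fastp for read cleaning, took out rRNA reads, mapped with HISAT2 (GRCm38), used SAMtools as a filter, and ran StringTie on Gencode vM25. Versions are not given in the sources used here. The authors deposited, per transcript, the read coverage (a signal not normalized for depth) and FPKM. Coverage holds no whole counts, so the DESeq2 test of the study was not run.

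Transcript FPKM were summed per gene, divided by median-of-ratios library factors (0.945 to 1.04), and log2(FPKM + 0.1) was tested with limma 3.58.1 in R 4.3.3 (intensity trend, 2 residual and 3.79 prior degrees of freedom) for mean FPKM of 0.1 or more. Fold changes on this scale understate those of low genes. P-values rest on 2 libraries per group. The test was tested on simulated data. The set, lists and motifs were chosen with earlier results of these data known, and the NF-κB consensus replaced 2 narrower forms searched first, 1 of which also matched Tlr2. Named genes are the set, called pathway genes, and the most abundant gene of each pathway list without a call, and others are said to be chosen after their values were seen, as were Tlr3, Tlr5, Tlr11, Tlr12, the NF-κB subunits and Tnf. T and natural killer cell, plasmacytoid dendritic cell, adipocyte and endothelial marker lists were also checked, and of these only Ly6d of the plasmacytoid list was called, lower in Ob + Exe. Col1a1 of the stroma list was also called lower. Gencode vM21 transcripts gave the shared stretches. Promoters from RefSeq matched 7 of the 10 genes. Alternatives were other pseudocounts, filters, scalings and tests, the replicate number as a block, the most abundant transcript only, and leaving out each library. A crossed pairing was added after seeing the data. Figures were drawn with matplotlib 3.10.9.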

Additional observations from a re-analysis of the deposited data

How the results depend on the processing

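Tlr2 was called in 14 of 15 alternatives, with a log2 fold change between 0.99 and 1.13 and an adjusted p in limma between 0.177 and 1.0. Without scaling between libraries the number of called genes of the set was 0. Il1b and Fos were called in 15 of 15. The number of all genes called was 222 with a pseudocount of 1, 267 with a minimum mean FPKM of 1, 455 with limma voom on read equivalents and 1060 without the intensity trend, beside 696. It was 599 to 1851 with 1 library left out, with 1229 without the first Ob + Exe library and 1851 without the second, where the lone library is assumed to vary like the others. Under quantile normalization 246 were higher and 416 lower, beside 186 and 510. The median log2 fold change of the set was 0.41 with the most abundant transcript only, and 0.013 to 0.41 with 1 library left out, lowest without the second Ob library and highest without the first Ob + Exe library (0.34 without the first Ob library). With 1 library left out, a group of a single library is set against 2, so groups separate more easily. They then did not overlap in 4 to 8 of the 10 genes (5 without the first Ob library, 8 and 7 without the first and second Ob + Exe library). The share of all genes standing this way is not given here, so these counts show no trait of the set. More pathway genes were called without either Ob + Exe library than with all libraries.

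The log2 fold change changed sign to -0.031 for Irak1 without scaling, and to 0.15 for Tlr1 and 0.82 for Tlr7 with the most abundant transcript only. With 1 library left out it ranged from -0.67 to 0.18 for Tlr1, from -0.17 to 1.16 for Cd14, from -0.71 to 0.35 for Tlr9, from -0.21 to 0.51 for Tlr13, from -0.0052 to 0.17 for Myd88 and from -0.35 to 0.44 for Irak1. Without a change of sign it ranged from 0.23 (without the second Ob + Exe library) to 1.22 (without the first) for Tlr4, from 0.33 to 0.71 (without the same libraries) for Tlr6, and from -0.56 (without the second Ob + Exe library) to -0.082 (without the first) for Tlr7. The cause was not tested. The replicate numbers were not said to pair libraries. The deviations of same-numbered libraries had a correlation of -0.106 across genes tested, and of -0.235 across those with at least 1 FPKM. The replicate block gave 742 calls, and 18 genes passed an adjusted p of 0.05. The crossed pairing, chosen after seeing the data, gave 803 and 11. In both, Tlr2 was the called gene of the set. Across genes with at least 1 FPKM, the log2 values of the 2 Ob libraries had a correlation of 0.949 and those of the 2 Ob + Exe libraries one of 0.900. Between groups it ran from 0.909 to 0.948, so the Ob + Exe libraries were less alike than any 2 libraries of different groups. The precision is limited by this and by 2 libraries per group.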
